A study of Mus musculus with 2 samples.

Results

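In the mouse mammary gland the luminal cells that line the ducts fall into a hormone-responsive and a secretory lineage. Hormone-responsive cells carry the receptors for estrogen (Esr1), progesterone (Pgr) and prolactin (Prlr), and pass these signals on to neighbouring cells through secreted factors such as the EGF family ligand Areg and the Wnt ligand Wnt4. Secretory-lineage cells carry few of these receptors and make milk components during lactation. The cells described here are those hormone-responsive luminal cells with little fibrinogen beta (Fgb) and uroplakin 3a (Upk3a) RNA, called Fgb/Upk3a-low cells.

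Cells came from mammary glands of adult wild-type female mice, which the sample labels put at 9 to 10 weeks and the protocol at 8 to 10 weeks of age. There was 1 library from control mice (Ctrl) and 1 from mice given clodronate liposomes (CL), lipid vesicles whose drug kills the phagocytes that take them up, injected into the peritoneum before collection. Dissociated live cells were sorted by flow cytometry for absence of the endothelial marker CD31 and the erythroid marker TER119, and sequenced by the 10x Genomics droplet method. How many animals went into each library is not given in the sources used here. With 1 library per group no test between groups was possible, and every interval is an exact 95% interval in square brackets that covers counting error only.

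Fgb/Upk3a-low cells were selected on their own transcript counts. Droplets with at least 500 genes and at most 15% mitochondrial UMIs (unique molecular identifiers, 1 per captured transcript) were kept. Luminal cells had at least 10 UMIs of keratins 8 and 18, more of these than of basal keratins 5, 14 and 17, and none of the leukocyte gene Ptprc. Hormone luminal cells had over 2 times more UMIs of Prlr, Areg, Cited1 and Ptn together than of 5 secretory genes (Ltf, Wfdc18, Csn3, Aldh1a3 and Plet1). Of these, cells with under 0.1% of UMIs from Fgb and Upk3a and under 5 UMIs of Aoc1, the diamine oxidase gene, were taken. This gave 1161 of 6297 kept cells in Ctrl and 1519 of 9335 in CL, 2680 of 15632 in all. Comparisons with cells on the other side of these limits are descriptions, since the same counts drew the line.

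The libraries held 118743318 (Ctrl) and 155765480 (CL) UMIs, and Fgb/Upk3a-low cells carried 22967206 and 27584309 of them, with medians of 19439 and 16542 UMIs and of 4268 and 3882 genes per cell. Their median mitochondrial share was 4.51% in Ctrl and 4.28% in CL. Over all kept cells the summed level of 10 myeloid genes was 120 UMIs in every 1000000 (CPM) in Ctrl and 356 CPM in CL, 1.57 [1.54, 1.60] on the log2 scale. Ptprc-positive cells with under 10 UMIs of luminal and of basal keratins were 4.16% of kept cells in Ctrl and 9.90% in CL. Per UMI of these cells the macrophage genes C1qa (759 and 354 CPM) and Adgre1 (74.0 and 51.3 CPM) were lower in CL, but there were more such cells, and in all they held 1129 and 1974 UMIs of C1qa and 110 and 286 of Adgre1. The libraries are therefore called by their labels, and depletion of macrophages in CL cannot be read from these counts. In Fgb/Upk3a-low cells the same list stood at 7.10 and 16.1 CPM, under its level of 127 and 326 CPM in empty droplets (100 to 300 UMIs), and none of the 10 genes was at 0 in either library. Although 22 barcode positions were among the candidate cells of both libraries, none was a Fgb/Upk3a-low cell in both, and 5 of the 2680 cells lay at such a position.

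Fgb/Upk3a-low cells made up 55.0% [52.9, 57.2] of the 2110 hormone luminal cells of the library labelled Ctrl and 57.7% [55.8, 59.6] of the 2634 of the library labelled CL. The log2 ratio of these shares, CL over Ctrl, was 0.07 [-0.04, 0.18] and within counting error. As a share of all luminal cells they were 22.6% and 21.2%, with a log2 ratio of -0.10 [-0.21, 0.02]. Of all kept cells they were 18.4% and 16.3%, with a log2 ratio of -0.18 [-0.29, -0.07], which was beyond counting error. The neighbouring hormone luminal groups had other shares in the 2 libraries. Cells of high Fgb and Upk3a (called Fgb/Upk3a-high) were 17.4% of hormone luminal cells in Ctrl and 40.1% in CL (log2 ratio 1.20 [1.03, 1.37]), and cells with at least 5 Aoc1 UMIs were 27.5% and 2.28% (-3.60 [-4.00, -3.21]). Aoc1 was also lower in CL in secretory-lineage cells (24.1 and 2.02 CPM) and empty droplets (256 and 12.3 CPM). Fgb was higher in both (15.8 and 36.9 CPM, and 244 and 446 CPM). Whether these shares reflect the level of the limiting genes or the number of cells of a kind was not tested. The share of Fgb/Upk3a-low cells depended on limits of the selection. With under 2 Aoc1 UMIs its log2 ratio was 0.24, and with no Aoc1 UMI, a limit chosen after seeing the data, 0.46. Without cells with 5 or more UMIs of other cell types it was 0.30.

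The first question was whether the label of these cells holds in their transcripts. Of the 5 genes used as markers, Fxyd2 and Ido1 set them apart from Fgb/Upk3a-high cells, while Prlr and Tspan1 marked hormone luminal cells as a whole. Crym was also higher in hormone luminal than in secretory-lineage cells, but only a minority of Fgb/Upk3a-low cells had it after thinning (described below). Fxyd2 (ENSMUSG00000059412, chromosome 9, 45399669 to 45410278, plus strand, GRCm38) encodes a small regulator of the sodium-potassium pump. Ctrl cells had 842 CPM of it and CL cells 450 CPM, against 167 and 52.4 CPM in Fgb/Upk3a-high cells and 93.5 and 43.5 CPM in secretory-lineage luminal cells. Ido1 (ENSMUSG00000031551, chromosome 8, 24584136 to 24597009, minus strand), the enzyme that opens the tryptophan ring, was at 599 and 352 CPM against 200 and 133 CPM in Fgb/Upk3a-high cells. Both genes were therefore higher in Fgb/Upk3a-low than in Fgb/Upk3a-high cells of either library, by a log2 ratio of 2.34 and 3.10 for Fxyd2 and of 1.58 and 1.40 for Ido1. They were not highest there, since the Aoc1 cells had 935 and 941 CPM of Fxyd2 and 905 and 647 CPM of Ido1.

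Tspan1, a tetraspanin of epithelial membranes, was at 497 CPM in Ctrl and 399 CPM in CL, and slightly higher in Fgb/Upk3a-high cells (533 and 430 CPM). Crym, which encodes a thyroid hormone binding protein, stood at 141 and 63.0 CPM against 133 and 46.0 CPM. Prlr, part of the selection, stood at 3221 and 2721 CPM against 2657 and 2373 CPM. In secretory-lineage cells Tspan1 was at 24.5 and 28.3 CPM, Crym at 11.6 and 5.14 CPM and Prlr at 244 and 246 CPM. The receptor genes that were not used for selection gave the same picture. Esr1 was at 116 and 108 CPM in Fgb/Upk3a-low cells, 108 and 99.5 CPM in Fgb/Upk3a-high cells and 14.8 and 14.3 CPM in secretory-lineage cells, and Pgr was at 153 and 102, 136 and 107, and 14.8 and 11.4 CPM. The cells were thus hormone luminal by independent markers, and Fxyd2 and Ido1 were the marker genes that followed the Fgb and Upk3a limit. Empty droplets held 624 and 224 CPM of Fxyd2 and 382 and 193 CPM of Ido1, below Fgb/Upk3a-low cells but above Fgb/Upk3a-high cells in both libraries.

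**Figure D1:**
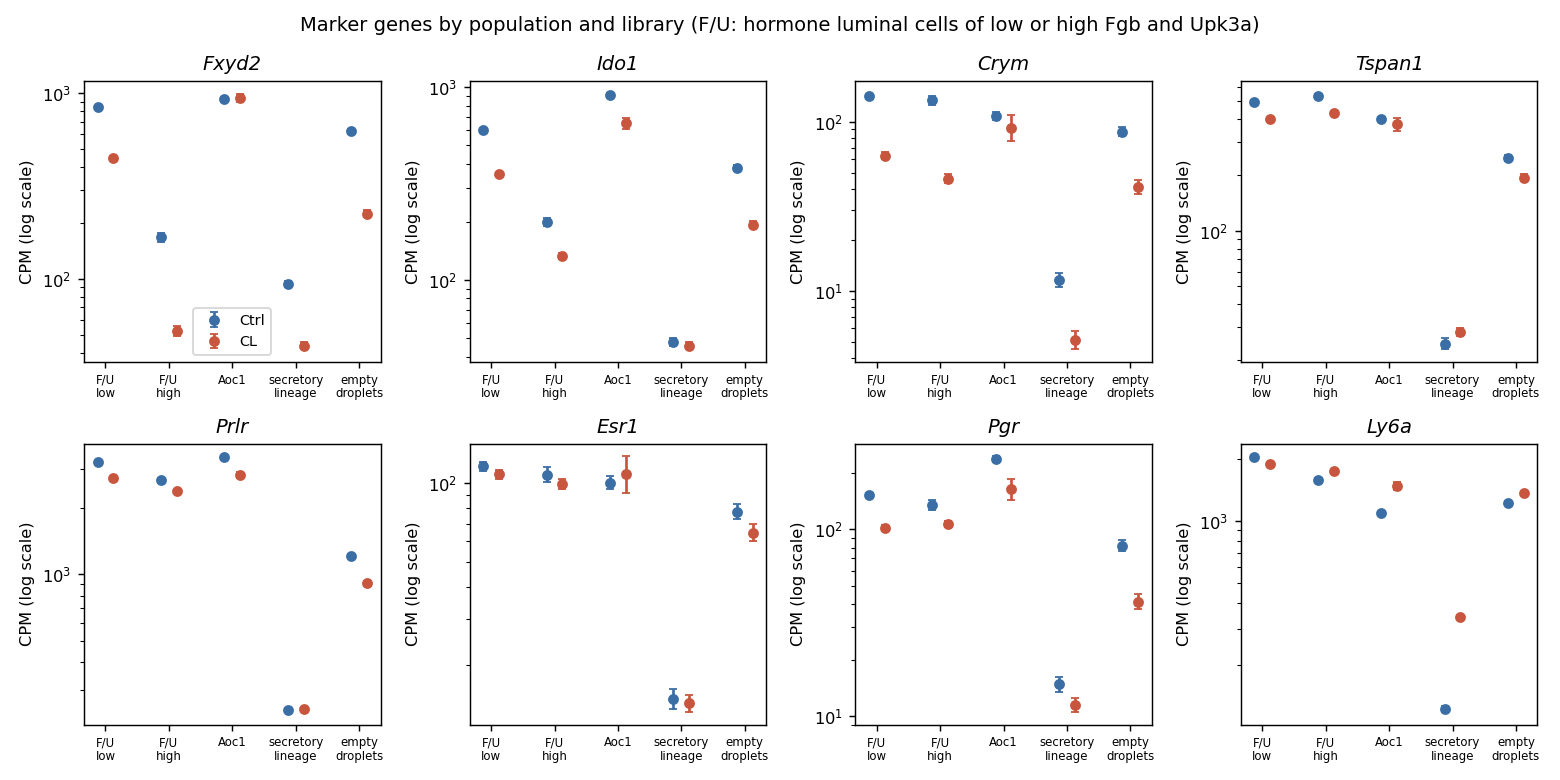
Level of 8 genes in CPM on a log axis, in the library labelled Ctrl (blue) and the library labelled CL (red), for hormone luminal cells of low and of high Fgb and Upk3a, Aoc1 cells, secretory-lineage luminal cells and empty droplets. Points are summed counts over all cells of a group and bars are exact 95% Poisson intervals. Fxyd2 and Ido1 drop from the low to the high group in both libraries, and Tspan1, Prlr, Esr1 and Pgr are lower in the secretory lineage than in the hormone luminal groups.

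Against the secretory lineage, 372 of 3248 genes (11.5%) were at least 2-fold higher in Fgb/Upk3a-low cells of both libraries and 464 (14.3%) at least 2-fold lower. Against Fgb/Upk3a-high cells only 3 of 2672 genes (0.112%) were at least 2-fold higher in both libraries and 3 (0.112%) at least 2-fold lower. The higher genes were Fxyd2, Ido1 and Dcn, and the lower genes were Pir, Itih2 and Fgg. Dcn belongs to the fibroblast list, whose sum was higher by 2.68 and 2.46 on the log2 scale. Against Aoc1 cells 0 of 2709 genes (0%) were 2-fold higher and 1 (0.0369%) was 2-fold lower. That gene was Mal, which encodes a lipid raft protein of apical transport, at 35.2 and 34.3 CPM against 76.7 and 82.8 CPM.

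The genes that differed most from Fgb/Upk3a-high cells were named by the smaller of the ratios in the 2 libraries. On the higher side followed Tppp3 (82.5 and 121 CPM against 36.7 and 64.4 CPM), which encodes a tubulin-binding protein, Fam3c (161 and 153 against 82.2 and 90.7 CPM), a secreted cytokine-like factor, and Rasgrf1 (97.4 and 76.0 against 48.6 and 45.6 CPM), an exchange factor that activates Ras. The lectin gene Lgals3 was among the most abundant, at 2937 and 3846 CPM against 2020 and 2683 CPM, and Crip1 stood at 997 and 940 CPM against 667 and 551 CPM. Fxyd6 (chromosome 9, 45370185 to 45396159), another pump regulator that ends just before Fxyd2 starts on the same strand, was at 76.4 and 71.4 CPM against 49.3 and 40.9 CPM. Iigp1, an interferon-induced GTPase, was at 60.0 and 76.0 CPM against 37.4 and 43.3 CPM, and counts of this gene may be shared with its near copies. Man1a, Clca3a2 and Scd2 completed the 12 genes, with ratios from 0.52 to 1.09.

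On the lower side, Pir (40.2 and 66.9 CPM against 123 and 201 CPM), an iron-binding nuclear protein, had log2 ratios of -1.62 and -1.59. Itih2, whose product stabilises the hyaluronan matrix, was at 36.4 and 26.6 CPM against 97.2 and 97.6 CPM. Fgg (chromosome 3, 83007724 to 83015049), the fibrinogen gamma chain gene that lies close to the selection gene Fgb (chromosome 3, 83040141 to 83049863), was at 415 and 786 CPM against 1382 and 1673 CPM. Empty droplets held 392 and 638 CPM of Fgg, near its level in Fgb/Upk3a-low cells. The tight junction gene Cldn10 (197 and 242 against 280 and 335 CPM), R3hdml (130 and 220 against 219 and 403 CPM) and Ramp1 (55.4 and 34.6 against 102 and 54.4 CPM), a partner of the calcitonin family receptor, were also lower. Hilpda, Foxq1, Golim4, Fam107b, Rnd3 and Mgst1 made up the rest of the 12 lower genes. For 7 of these 12 genes (Pir, R3hdml, Ramp1, Hilpda, Fam107b, Rnd3 and Mgst1), and for Tppp3 on the higher side, empty droplets held more than Fgb/Upk3a-low cells in both libraries.

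How sharp the border was could be read from bands of the Fgb and Upk3a share among hormone luminal cells with under 5 Aoc1 UMIs. Cell numbers in the 6 bands (no UMI, then limits at 0.02%, 0.05%, 0.1% and 0.2%) were 543, 338, 149, 131, 160 and 208 in Ctrl and 484, 490, 283, 262, 334 and 721 in CL. The bands differ in width. The band just inside the limit held fewest cells in either library, but no band was empty. Just inside the limit 131 Ctrl and 262 CL cells had 340 and 211 CPM of Fxyd2, and just outside 160 and 334 cells had 250 and 108 CPM. At the Aoc1 limit, 97 and 28 cells with 3 or 4 Aoc1 UMIs had 1118 and 1097 CPM of Fxyd2, and 135 and 30 cells with 5 to 9 Aoc1 UMIs had 1156 and 693 CPM. At the limit to the secretory lineage, 56 and 94 cells just inside had 758 and 235 CPM of Fxyd2, and 92 and 152 cells just outside had 658 and 222 CPM. From the first to the last band Fxyd2 went through 1175, 887, 214, 340, 250 and 104 CPM in Ctrl and through 796, 479, 194, 211, 108 and 26.2 CPM in CL. Cells without Fgb or Upk3a thus had the highest level and the last band the lowest in either library, and the fourth band was above the third in both. Ido1 went from 770 to 170 CPM in Ctrl and from 458 to 120 CPM in CL over the same bands.

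Areg, Cited1 and Ptn, which helped to select hormone luminal cells, ran the other way. Areg, a ligand of the EGF receptor, was at 1947 CPM in Ctrl and 1724 CPM in CL in cells without Fgb or Upk3a, at 3285 and 2821 CPM just inside the limit and at 4476 and 3662 CPM in the last band. Cited1, a transcriptional co-activator, went from 712 to 1611 CPM in Ctrl and from 883 to 1593 CPM in CL. Pir went from 26.6 to 148 CPM and from 34.4 to 234 CPM, and Fgg from 313 to 1500 CPM and from 534 to 1811 CPM. In contrast, Esr1 stayed between 97.3 and 122 CPM in all bands of Ctrl and between 96.7 and 118 CPM in CL, and Pgr between 133 and 158 CPM and between 98.1 and 110 CPM. In Ctrl, Pgr was highest in the first band and lowest in the last, and Esr1 was lowest in the last. This order was not repeated in CL, where Pgr was highest in the last band (110 CPM) and lowest in the third (98.1 CPM), and Esr1 was lowest in the fifth (96.7 CPM). The receptor transcripts thus differed between bands over a narrower range than the genes above. Cells without Fgb or Upk3a had fewer UMIs, with medians of 17548 and 13910 against 21651 and 17671 in the last band. Among cells with at least 10000 UMIs, a restriction chosen after seeing the data, Fxyd2 still went from 1205 to 105 CPM in Ctrl and from 827 to 26.7 CPM in CL, and Areg from 1930 to 4395 CPM and from 1741 to 3662 CPM.

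**Figure D2:**
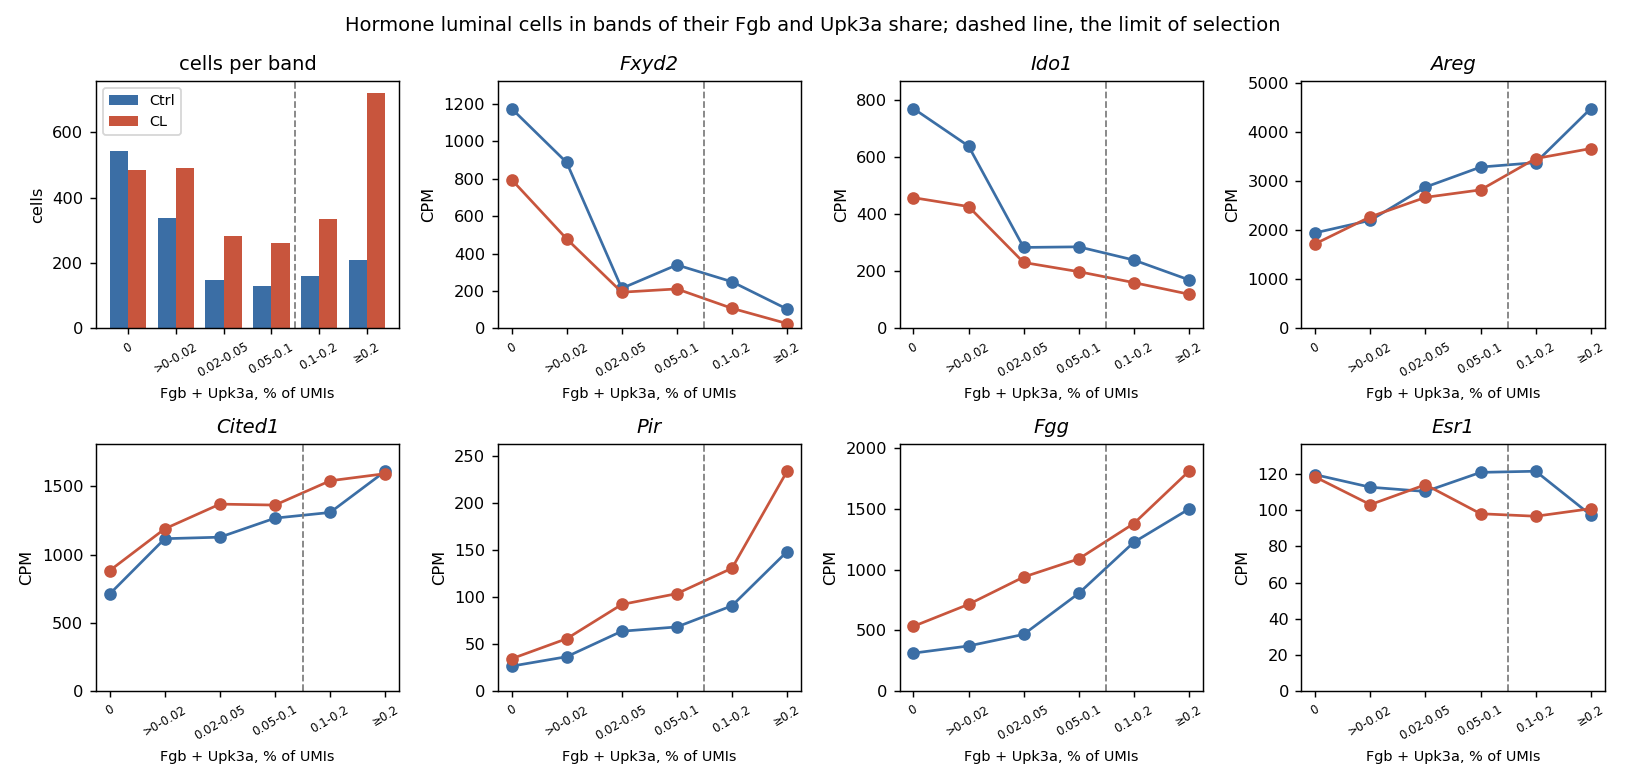
Number of cells and level of 7 genes in CPM (linear axes from 0, no error drawn) in 6 bands of the Fgb and Upk3a share among hormone luminal cells with under 5 Aoc1 UMIs, in the library labelled Ctrl (blue) and CL (red). The dashed line is the limit of 0.1%, and bands to its left are Fgb/Upk3a-low cells. Fxyd2 and Ido1 go down, Areg, Cited1, Pir and Fgg go up, and Esr1 stays between 96.7 and 122 CPM.

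Fgb/Upk3a-low cells also varied among themselves. To compare cells at 1 depth, each cell was thinned at random to 6829 UMIs, which kept 1045 Ctrl and 1374 CL cells and left out 116 and 145. The variance of a gene over cells divided by its mean is 1 when only counting error is present, and its median over 4127 genes was 1.1 in Ctrl and 1.08 in CL. Genes of the selection, such as Prlr, Areg, Cited1 and Ptn, and the other classes passed over in naming were left out here. Among the rest, the 10 genes with the highest ratios were Tmsb4x, Malat1, Mt1, Nupr1, Fos, S100a6, Atf3, Fxyd2, Cxcl2 and Jun. Of these, Fos, Jun and Atf3 are immediate early genes, which respond within minutes to stimulation and also to cell dissociation. Mt1 encodes a metal-binding metallothionein. Of the 4 marker genes outside the selection, only Fxyd2 (21.2 and 18.4) was among them.

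After thinning, Fxyd2 was found in 54.5% [51.5, 57.6] of Ctrl and 42.6% [39.9, 45.2] of CL Fgb/Upk3a-low cells, with medians of 1 and 0 UMIs and 90th percentiles of 19 and 10 UMIs. Without thinning the shares were 69.9% and 53.8%. Ido1 was found in 59.5% and 48.0%, with 90th percentiles of 12 and 7 UMIs. Crym was found in 23.3% and 16.6%, with a median of 0 UMIs in both libraries. Tspan1 (89.9% and 87.0%) and Prlr (99.8% and 100%) were found in most cells, and Esr1 in 52.1% [49.0, 55.1] and 52.2% [49.5, 54.9] at no more than 5 UMIs a cell. In the Ptprc-positive cells the thinned shares were 13.6% and 6.72% for Fxyd2, 18.2% and 5.14% for Ido1, which some leukocytes also express, and 3.03% and 4.74% for Esr1. Those cells were shallower, with medians of 5091.5 and 4879 UMIs before thinning, and 66 and 253 of them were deep enough to be thinned.

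Fxyd2 transcripts were concentrated in a part of the cells. Those with 5 or more Fxyd2 UMIs after thinning were 287 of 1045 in Ctrl (27.5%) and 251 of 1374 in CL (18.3%), and 475 (45.5%) and 789 (57.4%) had none, a split chosen after seeing the data. Crym followed Fxyd2 most closely among 2604 genes. It was at 333 CPM in Ctrl and 189 CPM in CL in the cells with 5 or more Fxyd2 UMIs, against 34.5 and 26.7 CPM in cells with none. Tph1, the first enzyme of serotonin synthesis outside the brain, was at 124 and 60.7 CPM against 25.6 and 14.7 CPM, and Muc16, a membrane mucin, at 119 and 200 CPM against 21.6 and 55.7 CPM. Fam3c, Crip1, Mal, Man1a, Fxyd6, Tmem159 and Iigp1 came next, with log2 ratios from 1.08 to 2.19. The cells with 5 or more Fxyd2 UMIs had less Areg (1301 and 1259 CPM against 3003 and 2736 CPM), R3hdml (46.9 and 75.3 against 199 and 285 CPM), Kif5c, Pir, Klf2 and Jun (2404 and 2738 against 5073 and 4985 CPM). Ido1 was at 968 and 489 CPM against 365 and 281 CPM, and Esr1 at 108 and 140 CPM against 110 and 102 CPM. Median depths were alike, at 21164 and 16971 UMIs in the former and 19750 and 17481 UMIs in the latter. The Fxyd2-rich cells therefore had the higher Crym, Tph1 and Muc16 and the lower Areg in both libraries, while Esr1 showed no common direction.

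**Figure D3:**
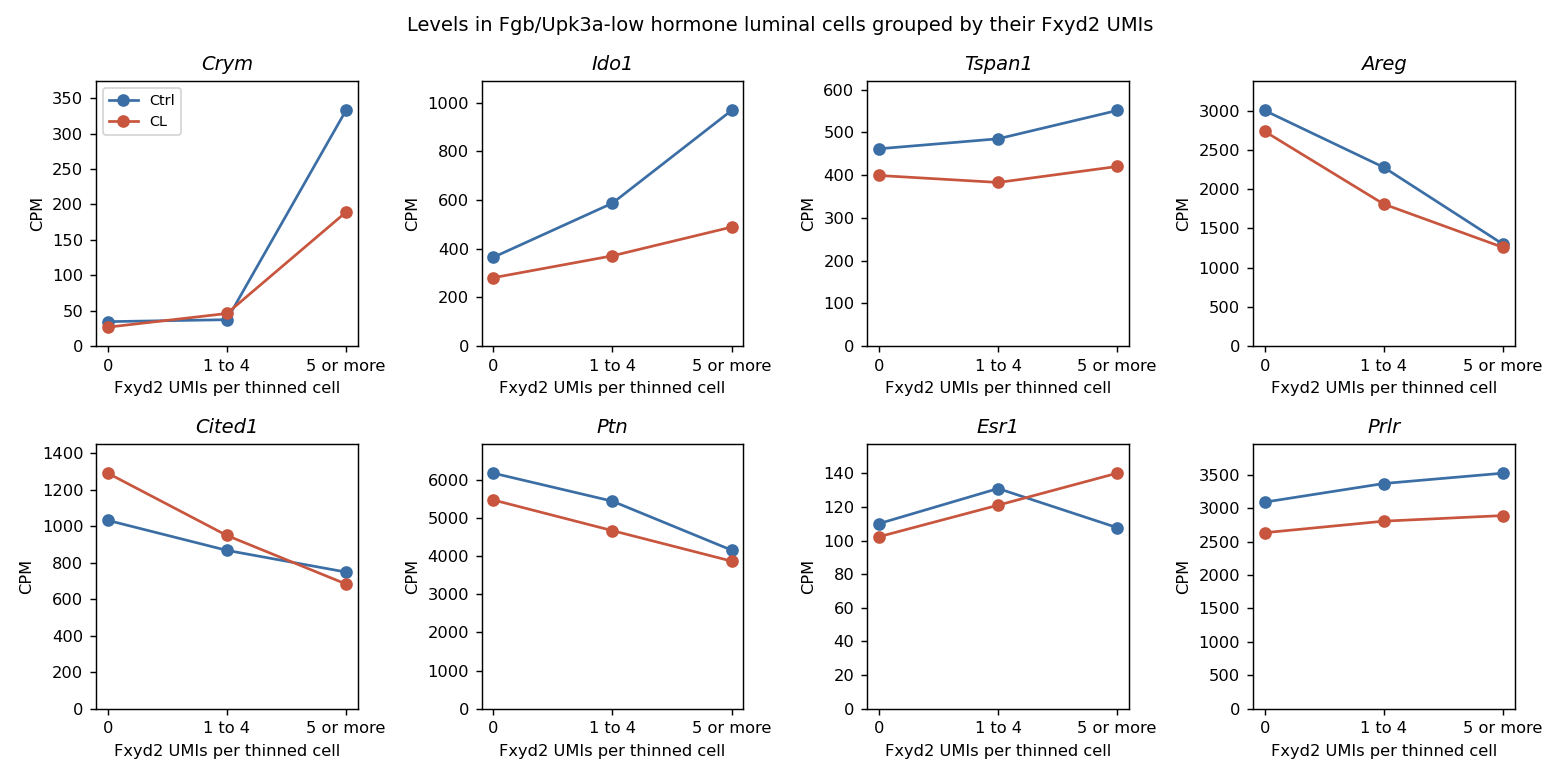
Level of 8 genes in CPM (linear axes from 0, no error drawn) in Fgb/Upk3a-low cells thinned to 6829 UMIs and grouped by their Fxyd2 UMIs, in the library labelled Ctrl (blue) and CL (red). In the cells with 5 or more Fxyd2 UMIs, Crym is at 333 and 189 CPM and Areg at 1301 and 1259 CPM, and Prlr lies between 2633 and 3524 CPM in all groups.

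The second question was how Fgb/Upk3a-low cells of the library labelled CL compared with those of Ctrl. Genes were compared where at least 50 CPM were reached in the higher library. Of 2847 such genes, 44.4% were higher in CL, with a median log2 ratio of -0.02 and 10th and 90th percentiles of -0.22 and 0.19. At least 2-fold higher in CL were 6 genes (0.211%), and at least 2-fold lower were 16 (0.562%). Beyond the lists given further on, the 12 highest and 12 lowest ratios were named, among genes that in the library where they were higher reached at least their level in its empty droplets.

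Among the genes named by this rule, Agps had the lowest ratio. This gene (ENSMUSG00000042410, chromosome 2, 75832177 to 75931350, plus strand), an enzyme of ether lipid synthesis, was at 660 CPM in Ctrl and 204 CPM in CL, a log2 ratio of -1.69 [-1.74, -1.65]. Gpx3 (ENSMUSG00000018339, chromosome 11, 54902453 to 54910377, plus strand), the secreted glutathione peroxidase, was at 890 and 288 CPM (-1.63 [-1.67, -1.59]). Slc5a5, the sodium-iodide symporter that takes iodide into the gland, was at 269 and 103 CPM (-1.38 [-1.44, -1.31]). Tph1 was at 61.7 and 25.4 CPM (-1.28 [-1.42, -1.15]), and Tgm2, which crosslinks proteins, at 521 and 222 CPM (-1.23 [-1.27, -1.18]). Crym was at 141 and 63.0 CPM (-1.16), Gsta4, a glutathione transferase, at 112 and 50.2 CPM (-1.16), and Tmem86a, an enzyme of lysoplasmalogen breakdown, at 168 and 77.2 CPM (-1.12). Syn2, Pwwp3b, the long non-coding RNA Morrbid and the ATPase Atp13a3 ran from -1.22 to -1.02. The levels in empty droplets moved the same way, for Agps from 443 to 117 CPM and for Gpx3 from 695 to 145 CPM, and their part in these ratios was not tested beyond the subtraction of a share of free RNA. With 5% free RNA subtracted and under all other settings tried, Agps ranged from -1.73 to -1.62 and Gpx3 from -1.83 to -1.31. In Fgb/Upk3a-high cells the log2 ratios were -1.53 for Agps, -1.58 for Gpx3 and -1.63 for Slc5a5, and in secretory-lineage cells -0.60, -1.68 and -1.14. Not all of the lowest genes were alike in this. Tph1 and Pwwp3b, at -1.28 and -1.08 in Fgb/Upk3a-low cells, were at -0.17 and -0.23 in Fgb/Upk3a-high cells and at -1.59 and -0.71 in secretory-lineage cells.

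Among the highest ratios, Clca3a2, a chloride channel accessory protein, was at 225 and 488 CPM (1.12 [1.07, 1.16]). Its near copy Clca3a1 was at 14.5 and 17.6 CPM, and reads could be split between the copies. Cxcl17, a mucosal chemokine, was at 49.7 and 101 CPM (1.03 [0.93, 1.13]), Fgg at 415 and 786 CPM (0.92 [0.89, 0.96]), and Muc16 at 49.1 and 92.0 CPM (0.91 [0.81, 1.01]). Empty droplets were also higher in CL, for Clca3a2 from 138 to 237 CPM, for Cxcl17 from 34.1 to 61.2 CPM and for Fgg from 392 to 638 CPM. Phgdh (43.7 and 73.5 CPM), which starts serine synthesis, had a ratio of 0.75. Foxq1, Prss22, Mid1, Tuba4a and Homer2 followed, from 0.64 to 0.52. In Fgb/Upk3a-high cells the ratios were 0.56 for Clca3a2, 1.03 for Cxcl17 and 0.28 for Fgg, and in secretory-lineage cells 0.54, 0.60 and 1.17. Differences between these groups of cells were not tested.

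**Figure D4:**
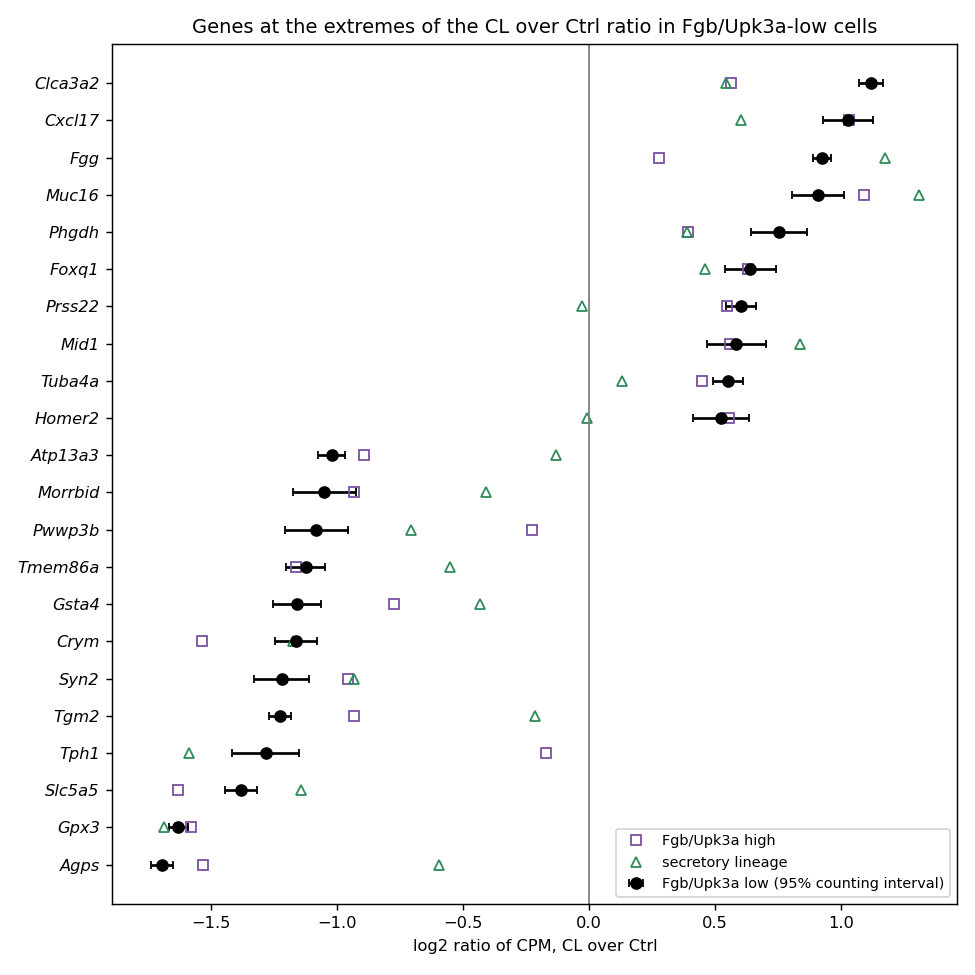
Log2 ratio of CPM, CL over Ctrl, for genes among the 12 highest and 12 lowest in Fgb/Upk3a-low cells (black, with exact 95% intervals for counting error), beside the ratio in Fgb/Upk3a-high cells (purple squares) and secretory-lineage cells (green triangles). Of the genes drawn, Agps is lowest at -1.69 and Clca3a2 highest at 1.12 in Fgb/Upk3a-low cells.

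Gene lists were read against the 44.4% of genes that were higher in CL. The 4 markers outside the selection (Fxyd2, Ido1, Crym and Tspan1) had a sum of 2079 CPM for Ctrl and of 1264 CPM for CL (-0.72 [-0.74, -0.70]), and each of them was lower in CL. Cells without Fgb or Upk3a UMIs, where Fxyd2 and Ido1 were highest, were 46.8% of Fgb/Upk3a-low cells in Ctrl and 31.9% in CL, and within them Fxyd2 was at 1175 and 796 CPM and Ido1 at 770 and 458 CPM. Fxyd2 had a log2 ratio of -0.90, Ido1 of -0.77 and Tspan1 of -0.32. The hormone receptors and their regulators summed to 2220 and 1906 CPM (-0.22 [-0.24, -0.20]), with 2 of 9 compared genes higher in CL and 7 lower. Esr1 was at 116 and 108 CPM (-0.10), Pgr at 153 and 102 CPM (-0.58), Gata3, a factor that maintains luminal identity, at 195 and 128 CPM (-0.61), and the pioneer factor gene Foxa1 at 102 and 88.2 CPM (-0.20). Greb1, an estrogen-induced cofactor, was under the 50 CPM minimum at 16.0 and 5.11 CPM, and after thinning it was found in 7.18% [5.69, 8.91] of Ctrl and 2.62% [1.84, 3.61] of CL cells. Pgr was found in 57.0% [54.0, 60.1] and 44.0% [41.4, 46.7] of thinned cells. The thinned shares in Ptprc-positive cells were 4.55% and 0.79% for Pgr and 1.52% and 0% for Greb1, also lower in CL. So Esr1 was alike in the thinned shares of both libraries, while Pgr and Greb1 were found in fewer cells of CL.

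The paracrine signals, which carry the hormone message onward, summed to 817 and 823 CPM (0.01 [-0.02, 0.04]), with 2 of 5 genes higher. Wnt4 was at 339 and 379 CPM (0.16), Hbegf at 151 and 166 CPM (0.14), Wnt5a at 97.4 and 78.7 CPM (-0.31) and Vegfa at 85.0 and 69.0 CPM (-0.30). Areg, left out of the sum because it served the selection, was at 2325 and 2320 CPM. In the prolactin and STAT5 list (-0.08 [-0.10, -0.05], 1 of 5 genes higher), Stat5a was at 89.0 and 60.9 CPM (-0.55) and Ccnd1 at 232 and 268 CPM (0.21).

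Genes of ion transport summed to 6781 and 5676 CPM (-0.26 [-0.27, -0.25]), with 5 of 12 higher. Slc12a2, the sodium-potassium-chloride cotransporter, was the most abundant at 3323 and 2884 CPM (-0.20), and the water channel gene Aqp5 was at 694 and 502 CPM (-0.47). The pump subunit gene Atp1b1 (96.6 and 109 CPM) was slightly higher in CL, unlike the pump regulator Fxyd2. Genes of the apical membrane (-0.37 [-0.39, -0.34]) had 1 of 4 higher, with Tspan13 at 438 and 321 CPM and Upk2 at 73.7 and 41.2 CPM. The metabolism and redox list summed to 3621 and 2137 CPM (-0.76 [-0.78, -0.75]), with 1 of 11 genes higher and 3 at least 2-fold lower (Agps, Gpx3 and Crym). Crym was under 2-fold without the 6% of cells with most UMIs (-0.72), with CPM averaged over cells (-0.90) and after thinning (-0.94). The median of its compared genes was -0.20, nearer to 0 than the ratio of the sums. Acsl3 (-0.10), Gpx1 (-0.14) and Txnrd1 (-0.01) lay near the median of all genes. The list was drawn up with earlier results of these data known, and it shares Ido1 and Crym with the markers.

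Immune-related lists were higher in CL. The interferon list summed to 1182 and 1550 CPM (0.39 [0.37, 0.41]), with 6 of 8 genes higher and 2, among them Gbp2, at least 2-fold. Empty droplets held more of this list, 1621 and 2798 CPM, and more in CL. Gbp2, an interferon-induced GTPase, was at 28.2 and 94.8 CPM (1.75), under its level of 36.0 and 285 CPM in empty droplets. Ifitm3 was at 537 and 714 CPM (0.41), but Irf1 (75.6 and 69.1 CPM) and Bst2 (153 and 147 CPM) were slightly lower. The list had a log2 ratio of 1.53 in secretory-lineage cells and 0.28 in Fgb/Upk3a-high cells. Genes of MHC class I presentation summed to 5103 and 5942 CPM (0.22 [0.21, 0.23]), with 12 of 13 higher, and empty droplets held 4626 and 6089 CPM of it. H2-K1 was at 1489 and 1908 CPM (0.36), H2-D1 at 1192 and 1387 CPM (0.22), and only Tap2 was lower (232 and 185 CPM). Reads of the H2 genes may be shared between near copies. Acute phase genes summed to 981 and 1566 CPM (0.67 [0.65, 0.70]), with all 4 compared genes higher, and were below empty droplets (2868 and 4040 CPM). These were Fgg, the siderophore-binding lipocalin gene Lcn2 (218 and 351 CPM), Cp (19.5 and 50.8 CPM) and Hp (324 and 365 CPM), and for Cp and Lcn2 the levels in secretory-lineage cells and in empty droplets were above those in Fgb/Upk3a-low cells in both libraries. Cxcl17 led the chemokine list (0.22 [0.19, 0.25], 4 of 4 higher, below 1406 and 1672 CPM in empty droplets), and Cxcl1 was at 131 and 159 CPM.

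TNF and NF-kB genes had a log2 ratio of 0.07 [0.05, 0.09] with 5 of 6 higher, and Nfkbia, the inhibitor of NF-kB, was at 1394 and 1462 CPM. Immediate early genes, at 24250 and 24129 CPM, had a ratio of -0.01 with 6 of 15 higher, and heat shock genes of -0.13 with 2 of 9 higher. Luminal identity genes had a ratio of -0.03 (7 of 11 higher), Ly6 genes of 0.08 (3 of 4), EGF and IGF genes of -0.06 (2 of 4) and Notch and Wnt genes of -0.02 (2 of 4). Ly6a, the gene of the surface marker Sca1, was at 2038 and 1896 CPM. Il33, an alarmin, missed the 50 CPM minimum narrowly at 49.6 CPM in Ctrl and was at 12.3 CPM in CL.

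Division genes had a sum of 375 CPM for Ctrl and of 270 CPM for CL (-0.48 [-0.52, -0.43]), and only Pcna and Mcm6 of the 20 reached 50 CPM, with ratios of -0.01 and -0.15. Among genes of mitosis, all under that minimum, Ube2c was at 24.9 and 5.29 CPM, Mki67 at 13.5 and 4.06 CPM and Top2a at 22.1 and 12.3 CPM. Cells with at least 20 UMIs of the list numbered 58 in each library, 5.00% [3.82, 6.41] of Fgb/Upk3a-low cells in Ctrl and 3.82% [2.91, 4.91] in CL, and they carried 60.5% and 42.5% of the division UMIs. A small share of cells thus held much of the sum, and without the 6% of cells with most UMIs the ratio was -0.19. In Fgb/Upk3a-high cells the ratio was -1.26.

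**Figure D5:**
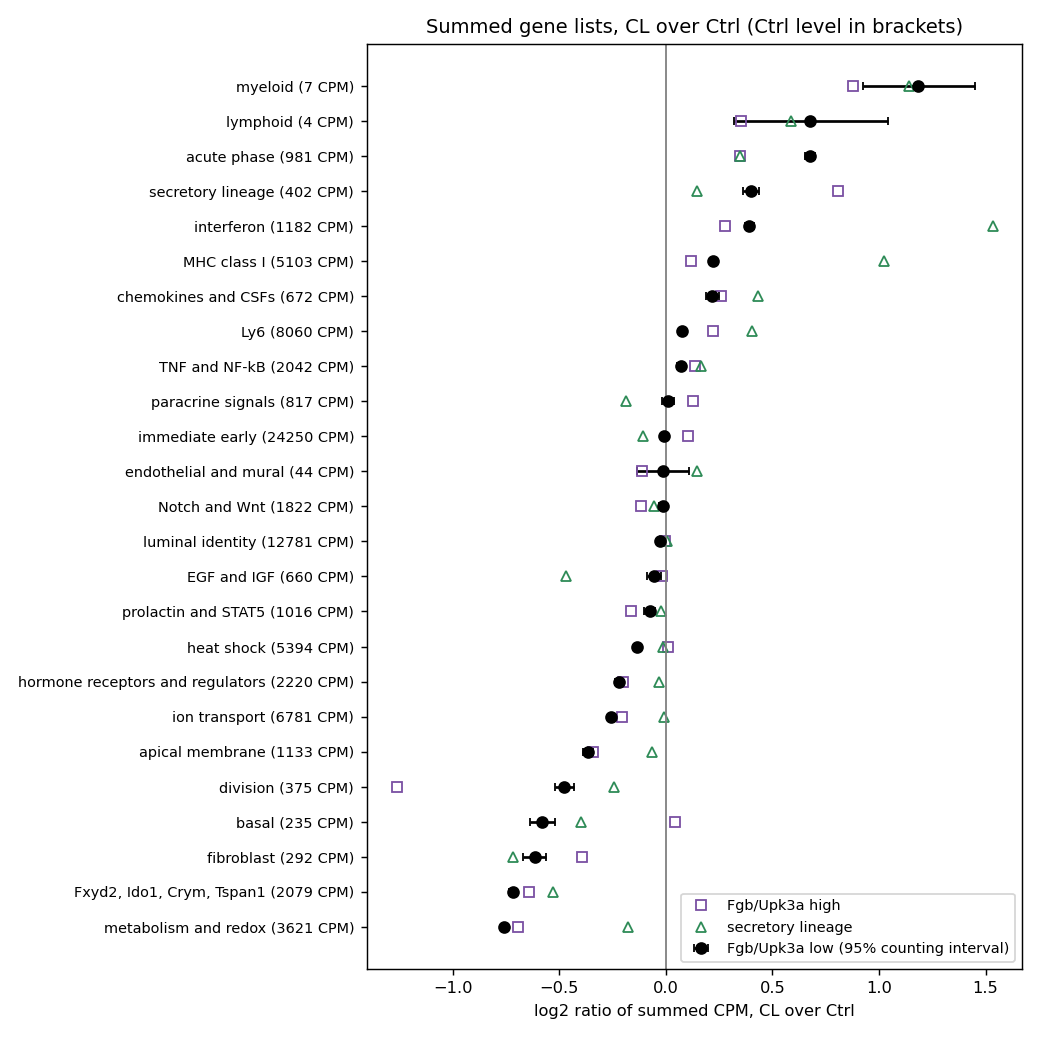
Log2 ratio of summed CPM, CL over Ctrl, of 25 gene lists in Fgb/Upk3a-low cells (black, with exact 95% intervals for counting error), Fgb/Upk3a-high cells (purple squares) and secretory-lineage cells (green triangles), with the Ctrl level in Fgb/Upk3a-low cells in brackets. Among the lists in Fgb/Upk3a-low cells, metabolism and redox is lowest at -0.76. The interferon list stands at 0.39 in Fgb/Upk3a-low and 1.53 in secretory-lineage cells.

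Genes of other cell types were low in Fgb/Upk3a-low cells. The lists of basal (235 and 157 CPM), endothelial and mural (43.6 and 43.2 CPM), myeloid (7.10 and 16.1 CPM) and lymphoid cells (4.35 and 6.96 CPM) were each below their level in empty droplets, and so was the secretory list without its selection genes (402 and 531 CPM against 2996 and 3831 CPM). None of the 11 basal, 10 endothelial and mural or 10 myeloid genes was at 0 in either library. Of the 11 lymphoid genes, 1 was at 0 in Ctrl and 1, another gene, in CL. The one at 0 in Ctrl, Cd3e, had 10 UMIs in CL. The basal list had a log2 ratio of -0.58 between libraries, the myeloid list of 1.18 and the lymphoid list of 0.68. With 5% free RNA subtracted these ratios were -1.19, 0.03 and 1.12. Empty droplets held 127 and 326 CPM of the myeloid and 96.2 and 175 CPM of the lymphoid list. For these lists the amount subtracted was thus about as large as the level in the cells. Genes were not let below 0, so the values of 0.03 and 1.12 rest on small remainders and are not corrected ratios. Without cells with 5 or more UMIs of these lists, which left 719 and 1106 cells, they were -0.02, 1.25 and 0.60. The other ratios were recomputed in both ways, and beyond that the part of such RNA was not tested.

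The fibroblast list (292 and 190 CPM) was also below empty droplets (651 and 343 CPM), and most of it was Dcn, the gene of the matrix proteoglycan decorin. Dcn was at 179 CPM in Ctrl and 159 CPM in CL, against 25.2 and 24.1 CPM in Fgb/Upk3a-high cells, and the collagen genes Col1a1 (35.2 and 9.24 against 4.63 and 2.31 CPM) and Col3a1 (28.6 and 5.76 against 3.90 and 1.83 CPM) were higher in Fgb/Upk3a-low cells too. Dcn was found in 301 Ctrl and 343 CL cells, and 57 and 85 cells with at least 10 UMIs held 89.96% and 87.7% of its UMIs. In cells without any UMI of Col1a1, Col1a2 or Col3a1 (80.4% and 92.4% of Fgb/Upk3a-low cells) it was still at 140 and 141 CPM, and in cells with 5 or more Fxyd2 UMIs at 304 and 324 CPM. Dcn and the collagen genes were thus not high in the same cells throughout. Free RNA of empty droplets held 296 and 177 CPM of Dcn.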

How the data were processed

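The authors deposited raw UMI counts, 1 unfiltered matrix per library of 32285 genes by 6794880 barcodes, with Cell Ranger 4 in the file header. The submitters' processing notes name Cell Ranger 2.1.1 and mm10. The deposited lists of 7217 and 10555 cell barcodes did not index the matrix columns, so as many barcodes, those with most UMIs, were taken as candidates. Cells were selected as described. UMIs were summed per library and group and divided by their total (CPM). No doublet caller was run. Instead, cells with most UMIs or with UMIs of other cell types were left out as alternatives. Compared genes reached 50 CPM in the library with more and had 20 UMIs or above, and genes of the selection were left out.

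Named were the 12 highest and 12 lowest CL over Ctrl ratios at or above the level of empty droplets in the higher library, the 12 highest and 12 lowest ratios to Fgb/Upk3a-high cells, and the 10 most variable genes. This naming passed over genes of the selection, markers of other cell types, genes without a symbol, Xist, Y-linked, haemoglobin, ribosomal and mitochondrial genes. Some named or listed genes are not reported here. Cells, lists and rules were chosen with earlier results of these data known, and lists such as metabolism and redox hold genes seen to differ before. No p-value was computed. Intervals were checked on simulated data. The low and high limits of shares are Clopper-Pearson, those of levels Poisson and those of ratios conditional binomial, at a level of 95%. Positions are from GENCODE M21. Software was Python 3.11.15 with numpy 2.4.6 and scipy 1.17.1, and edgeR 4.0.16 for TMM factors.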

Additional observations from a re-analysis of the deposited data

Results flagged for a closer look

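The summed immediate early genes stood out because their CL over Ctrl ratio had opposite signs in 2 groups of hormone luminal cells. It was -0.01 on the log2 scale in Fgb/Upk3a-low cells and 0.10 in Fgb/Upk3a-high cells, each beyond counting error. This difference was not tested, and the first value took the other sign under 2 alternatives.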

How the results depend on the processing

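Each group had 1 library, so differences between animals or preparations cannot be told apart from the treatment, and depth limits only counting error. No paired analysis was possible because each group had 1 library. Of 600 values of 40 genes over 15 alternatives, 453 stayed within the counting interval of the reported value and 0 changed sign. Of 375 values of 25 lists, 223 stayed within it and 4 changed sign. A change of sign was counted only where the interval of the reported value left out 0, so those of Areg, of the Notch and Wnt and endothelial lists and of the share, all within counting error of 0, are not among them. The 4 were luminal identity (0.02 with TMM factors), immediate early genes (0.01 without the 6% of cells with most UMIs and 0.04 with TMM factors) and EGF and IGF genes (0.03 without cells with 5 or more UMIs of other cell types). Besides Crym, some named genes were under 2-fold at their weakest: Clca3a2 at 0.93, Cxcl17 at 0.97, Atp13a3 at -0.93, Morrbid at -0.98, Tmem86a at -0.92 and Tph1 at -0.96. The cause of the shifts was not tested.

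The 6 genes at least 2-fold higher became 2 when CPM was averaged over cells, 1 with a minimum of 200 CPM and 168 with none, and the 16 lower ones 5 and 278 with these minimums. With TMM factors the log2 ratios were -0.18 for hormone receptors, 0.06 for paracrine signals, -0.72 for metabolism and redox, 0.44 for interferon, 0.26 for MHC class I and 0.72 for acute phase genes. With no Aoc1 UMI, an alternative chosen after seeing the data, they were -0.20 for hormone receptors, -0.70 for metabolism, 0.37 for interferon, 0.24 for MHC class I, 0.76 for acute phase and -0.69 for division genes, and 0.46 for the share of hormone luminal cells. With under 2 Aoc1 UMIs they were -0.73 for metabolism, -0.59 for division and 0.24 for the share. Without cells with 5 or more UMIs of other cell types they were -0.24 for hormone receptors, -0.81 for metabolism, 0.16 for MHC class I and 0.30 for the share. Averaging CPM over cells gave -0.84 for metabolism, 0.42 for interferon, 0.20 for MHC class I, 0.61 for acute phase and -0.33 for division genes. Thinning gave -0.81 for metabolism, 0.21 for MHC class I, 0.62 for acute phase and -0.37 for division genes. Without the 6% of cells with most UMIs metabolism was at -0.79, acute phase at 0.63 and division at -0.19. A mitochondrial limit of 5% gave -0.72 for metabolism and -0.38 for division. A Fgb and Upk3a limit of 0.05% gave 0.41 for interferon, 0.73 for acute phase and -0.26 for division, and one of 0.2% gave 0.62 for acute phase and -0.54 for division. Requiring the hormone sum only to exceed the secretory sum gave 0.44 for interferon, 0.24 for MHC class I and -0.37 for division, and requiring over 4 times gave 0.76 for acute phase. Subtracting 5% free RNA gave 0.36 for interferon and 0.70 for acute phase.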
